A study of Arabidopsis thaliana with 9 samples.

Results

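Genes with their highest expression in mock-treated leaves were examined in rosette leaves of Arabidopsis thaliana. The set holds 46 of 33610 listed genes and was selected on measured values, counts per 1000000 reads in genes (CPM). A member had a mean of at least 5 CPM in mock leaves, at least 2 times the untreated mean and at least 1.5 times the Alternaria mean. In addition, every mock library had to lie above all 6 other libraries. All 46 members passed the filter on low counts and were tested.

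All plants were of the ecotype Col-0, grown on soil at 22 °C with 8 h of light for about 5 to 6 weeks. Messenger RNA was sequenced from 3 groups of 3 libraries, which the labels call biological replicates: untreated, mock treated, and sprayed with Alternaria brassicicola. Per the labels, spores were applied at 1000000 per ml with 0.01% Silwet L 77, a wetting agent, and rosette leaves were taken 3 days later. What the mock spray held, and when mock and untreated leaves were taken, is not given in the labels, so the spray, the wetting agent and the time of harvest cannot be told apart in mock leaves. Nothing says whether leaves of several plants were pooled.

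Alternaria brassicicola is a necrotroph, a fungus that kills leaf tissue and feeds on it. A mock spray carries the handling and usually the liquid without the spores, and many leaf genes respond to wetting, touch, humidity, light and hour of day. Leaves store carbon by day as starch and organic acids, and genes for sugar use, pigment, cold tolerance and wall growth follow the plant's sugar level, hormones and clock.

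Depth was 22713147 to 36061529 reads in genes per library, so that 3 counts, the limit that a count of 0 allows, came to 0.0832 to 0.132 CPM (counting error only). Summed markers of leaf mesophyll (4 genes for photosynthetic proteins) came to 50800 to 52800 CPM in untreated, 43100 to 45400 in mock and 22400 to 24900 in Alternaria libraries. Root markers came to 43.6 to 120, 90.6 to 109 and 73 to 134 CPM in the same order, nearly all from PYK10, and flower markers to 2.95 to 6.63 CPM over all libraries, with AP3 at 0 in Alternaria replicate 3. None of the 7 marker lists held a member (0). In these bulk samples fewer cells of a type and less RNA per cell cannot be told apart.

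The limits of the rule were met in steps. Of 14312 genes at the level limit, 333 reached 2 times the untreated mean, 1943 reached 1.5 times the Alternaria mean, 59 did both, and 46 also had no overlap with any other library. Just inside the limit over untreated were AT1G61795 (2 times), BES1 (2.02) and AT5G34790.1 (2.05), and just outside AT1G54820 (1.99), BGLU8 (1.97) and ENODL19 (1.97). Just inside the limit over Alternaria were GDU4 (1.51 times), AT3G55760 (1.52) and AT3G10405 (1.53), and just outside AT2G42320 (1.49), AT4G24275 (1.45) and AT5G45650 (1.4). Leaving out mock replicate 1 raised the number of genes that met the rule from 46 to 72, and the other leave-outs gave 41 to 55.

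The bases before the start of 3 members are shown first, chosen because they carry several copies of short motifs known from cold and abscisic acid responses. They are the 250 bases upstream of the RefSeq start in the build TAIR10.1. COR15A lies at chr2:17712331-17712580 (minus strand), LTI78 at chr5:21240467-21240716 (plus strand) and the remorin gene AT2G41870 at chr2:17472985-17473234 (minus strand), and each is written 5′ to 3′ along its gene. Capitals mark CCGAC, the core of the cold response element, and ACGTG, the core of the abscisic acid response element, on either strand.
COR15A: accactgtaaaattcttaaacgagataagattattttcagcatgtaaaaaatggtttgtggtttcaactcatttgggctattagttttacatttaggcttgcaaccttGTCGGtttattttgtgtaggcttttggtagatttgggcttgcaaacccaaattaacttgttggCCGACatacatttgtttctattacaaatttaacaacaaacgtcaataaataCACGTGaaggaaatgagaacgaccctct
LTI78: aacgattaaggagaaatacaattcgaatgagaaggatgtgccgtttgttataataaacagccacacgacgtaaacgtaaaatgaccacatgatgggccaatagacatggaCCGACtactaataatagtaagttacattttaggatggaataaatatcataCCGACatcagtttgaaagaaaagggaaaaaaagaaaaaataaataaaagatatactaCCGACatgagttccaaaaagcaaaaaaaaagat
AT2G41870: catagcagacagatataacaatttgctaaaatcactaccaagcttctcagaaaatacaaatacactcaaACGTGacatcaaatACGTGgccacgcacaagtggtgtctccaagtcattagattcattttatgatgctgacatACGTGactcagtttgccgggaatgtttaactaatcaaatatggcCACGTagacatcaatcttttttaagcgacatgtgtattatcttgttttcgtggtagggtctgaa
COR15A held 2 copies of CCGAC and a CACGTG, which reads as ACGTG on both strands and was counted as 2. LTI78 held 3 copies of CCGAC, and AT2G41870 held 4 copies of ACGTG. AT3G55940, a member not shown, held 1 copy of CCGAC and 3 of ACGTG, with a CACGTG counted likewise. Whether these motifs act in the members was not tested.

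Short RNAs that lie within or across members are shown next, since reads of a long transcript and of a precursor inside it are hard to assign. AT4G13495, a non-coding RNA gene, overlaps the precursors of miR5026, miR850 and miR863, and AT4G13575 overlaps that of miR3932b. All lie on chromosome 4 and on the same strand as the longer gene. Capitals mark the seed, bases 2 to 8 of the mature RNA, and no seed is shared among them.
miR5026 (chr4:7844612-7844632): aCUCAUAAgaucgugacacgu
miR850 (chr4:7845756-7845777): uAAGAUCCggacuacaacaaag
miR863-5p (chr4:7846644-7846664): uUAUGUCUuguugaucucaau
miR863-3p (chr4:7846835-7846855): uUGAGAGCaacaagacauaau
miR3932b-5p (chr4:7890695-7890715): uUUGACGUgcucgaucugcuc
miR3932b-3p (chr4:7890590-7890610): aACUUUGUgaugacaacgaag
Sequences and positions are those of RefSeq, build TAIR10.1.

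AT4G13495 had the most reads per transcript length of all members, 855 mock CPM per kb. It measured 306, 276 and 295 CPM in untreated, 730, 782 and 733 in mock and 487, 458 and 402 in Alternaria leaves (replicates 1, 2 and 3). Untreated and Alternaria libraries did not overlap, and Alternaria leaves lay above untreated leaves by 0.53 ± 0.08 on the log2 scale (SE, adjusted p = 7.6e-05, edgeR quasi-likelihood test). AT4G13575, an uncharacterized gene on the same chromosome, was ordered alike, at 41 ± 2.43, 122 ± 8.65 and 65.3 ± 9.84 CPM in untreated, mock and Alternaria leaves (mean ± SD, n = 3), and Alternaria exceeded untreated by 0.58 ± 0.10 (adjusted p = 0.00022, edgeR). The precursor gene of miR850, which is no member, measured 11.2 ± 1.23, 17.5 ± 0.443 and 12.9 ± 1.78 CPM, and it rose in mock leaves over untreated by 0.60 ± 0.11 (adjusted p = 0.0016, edgeR). The precursor gene of miR863 measured 3.4 ± 0.323, 4.77 ± 0.507 and 4.48 ± 0.235 CPM and rose by 0.45 ± 0.14 (adjusted p = 0.0324, edgeR). Reads that fall in both a precursor and AT4G13495 may have been given to neither.

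Together the members took 0.484% ± 0.0488 of reads in genes in mock leaves, 0.177% ± 0.0117 in untreated and 0.229% ± 0.0305 in Alternaria leaves (mean ± SD, n = 3 libraries each). Mock means were 2 to 12.4 times the untreated means, highest in the beta-amylase gene BAM5, and 1.51 to 12.6 times the Alternaria means, highest in the wall enzyme gene XTH31. These folds chose the members and carry no test. The share of all 22019 tested genes that passed an adjusted p of 0.05 (edgeR, Benjamini-Hochberg) was 15.1% higher and 14.1% lower in mock than in untreated leaves, and 26.1% higher and 29.5% lower in mock than in Alternaria leaves.

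**Figure D1:**
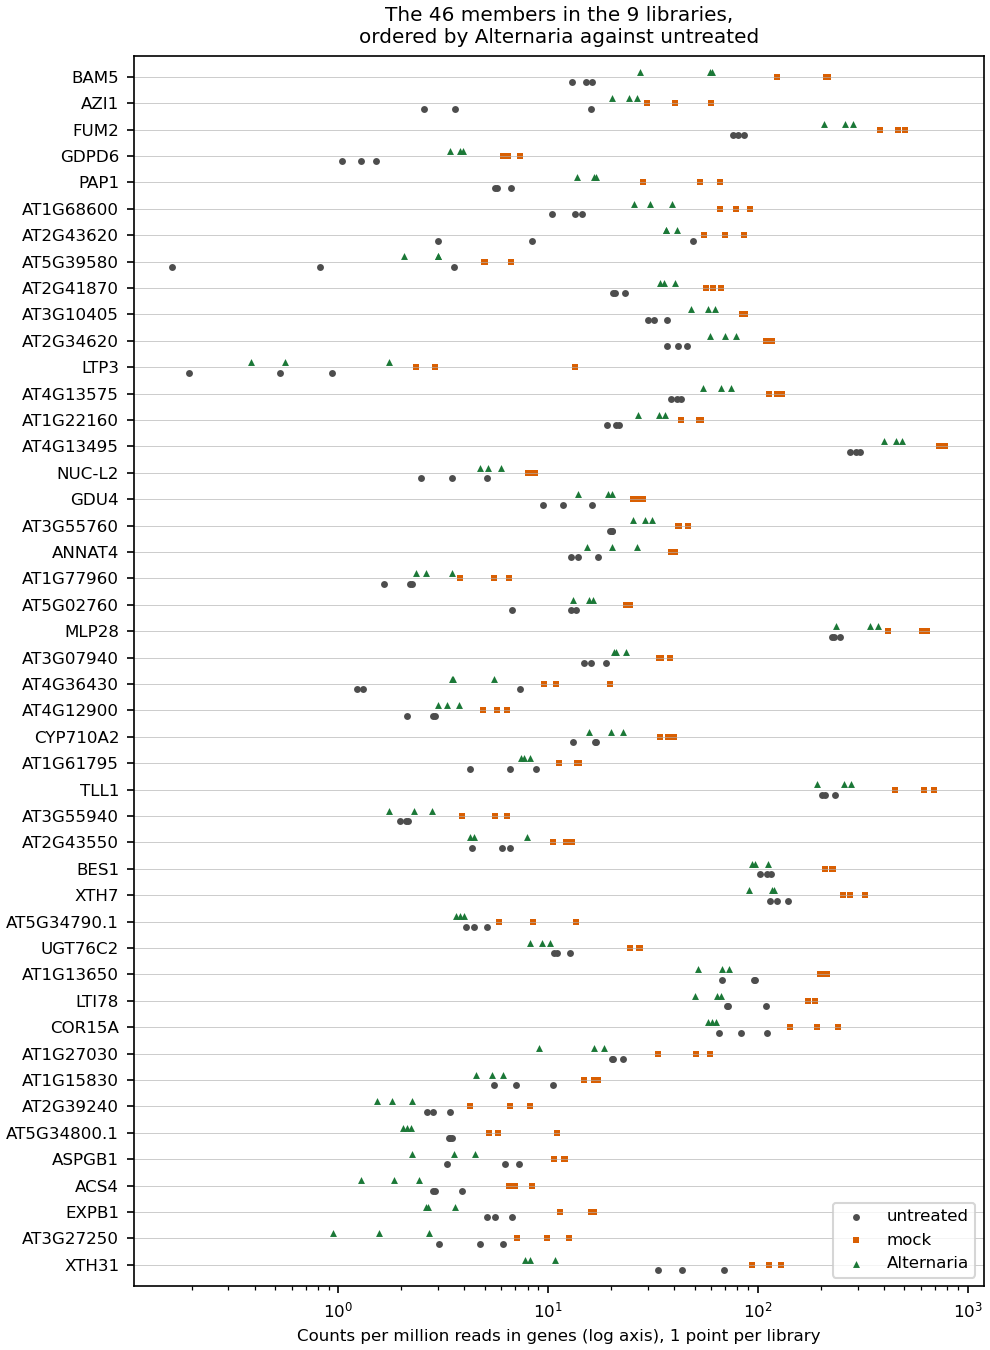
CPM (x axis, log scale) of the 46 members (y axis) in each of the 9 libraries, with grey circles for untreated, orange squares for mock and green triangles for Alternaria leaves. Orange squares lie farthest right in every row by the rule, while green triangles lie right of the grey circles at the top (BAM5, FUM2, PAP1) and left of them at the bottom (XTH31, EXPB1).

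Alternaria against untreated leaves is the comparison that the rule did not make. The limits of the rule did use the values of both groups, so tests of members here are not wholly free of the choice. The fungus group was higher for 16 members (34.8%), lower for 14 (30.4%), and 16 did not pass, at an adjusted p under 0.05 over all tested genes. Among all 22019 genes 33.1% were higher and 31.8% lower, so the members' shares lay near the background. Their median log2 change was 0.30 against -0.04 over all genes, but the rule asked for 2 times untreated and only 1.5 times Alternaria, which leans the members that way. The range ran from -2.54 (XTH31) to 1.64 (BAM5). Of the 30 members called, 24 (80%) had no overlap between the groups, against 93.2% of all 14288 called genes, and genes both called and without overlap made up 60.5% of all tested genes. Of the members called, 19 kept their call under each of 18 alternatives. How many of all called genes would do so was not counted, so this number is not a result about the members. The count of lower members was 9 without untreated replicate 3 and also 9 without Alternaria replicate 3. Counts over all genes in those fits are not given here, so whether such a drop is particular to the members was not tested. Under upper-quartile scaling, which shifted the median of all genes by -0.20, the split was 13 higher and 15 lower among members and 5549 and 9234 among all genes, against 7287 and 7001.

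**Figure D2:**
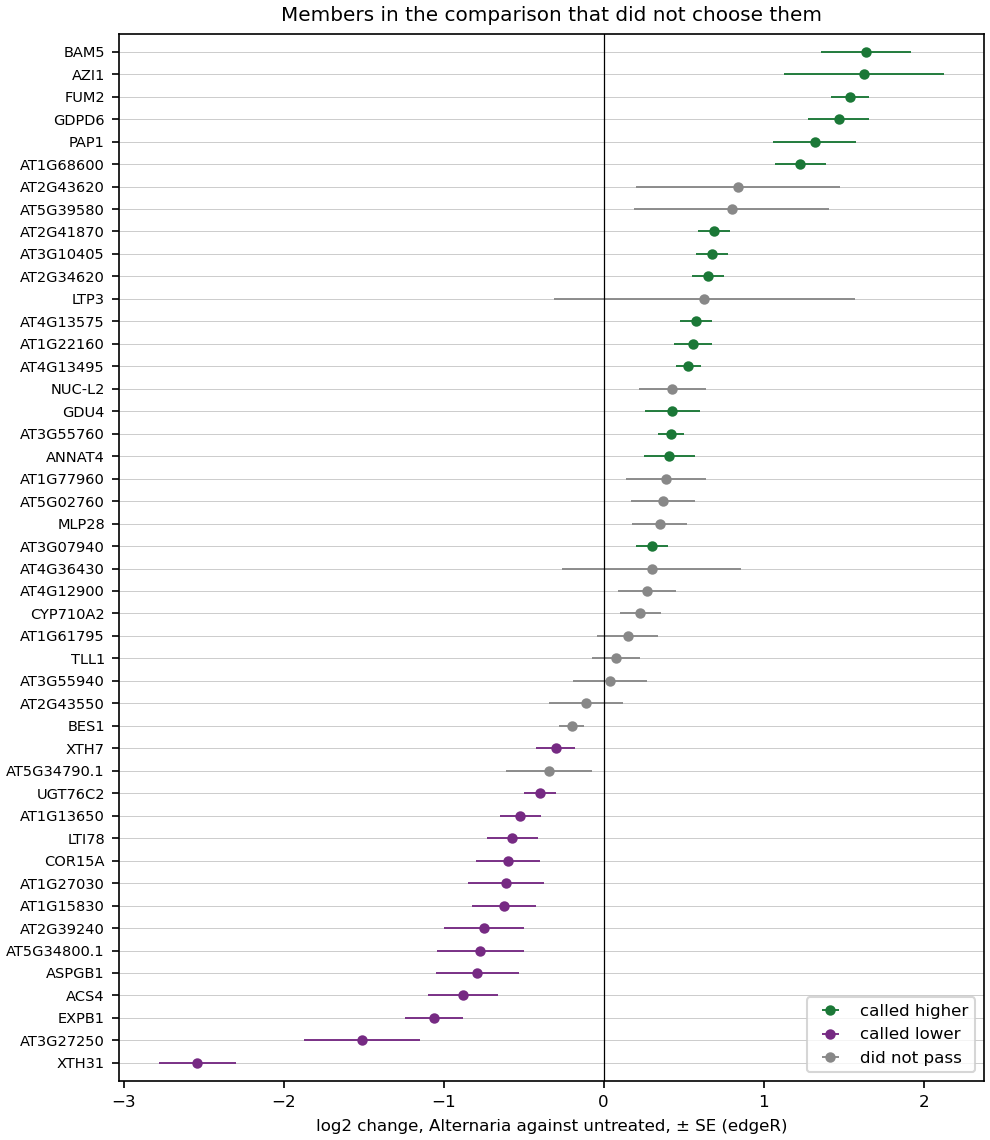
log2 change of Alternaria against untreated leaves (x axis) with its standard error for each of the 46 members (y axis), green where called higher, purple where called lower and grey where the test was not passed. BAM5 stands at 1.64 and XTH31 at -2.54, and 16 members did not pass.

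The largest rise in Alternaria against untreated leaves was that of BAM5, and AZI1, given below, lay close to it (1.63 ± 0.50). Members linked to starch, sugars, organic acids or lipids are given next, and such a theme was not tested among the members. BAM5 (AT4G15210), a beta-amylase that splits starch-type chains into maltose, measured 16.3, 13 and 15.2 CPM in untreated, 124, 212 and 217 in mock and 60.6, 59.5 and 27.5 in Alternaria leaves. Untreated and Alternaria libraries did not overlap, while mock libraries lay above both by the rule. Mock replicate 1 and Alternaria replicate 3 lay well below the others of their groups. Alternaria leaves exceeded untreated leaves by 1.64 ± 0.28 (adjusted p = 0.00021, edgeR).

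FUM2 (AT5G50950), the cytosolic fumarase that interconverts malate and fumarate, measured 76.5, 80.1 and 86.1 CPM in untreated, 384, 464 and 504 in mock and 261, 283 and 207 in Alternaria leaves. Untreated and Alternaria libraries stood clear of each other, and Alternaria exceeded untreated by 1.54 ± 0.12 (adjusted p = 1.9e-07, edgeR). FUM1, the mitochondrial fumarase and the closest copy, was at 83.2 ± 4.42, 89 ± 5.79 and 120 ± 9.54 CPM. It did not pass the test in mock against untreated leaves (0.06 ± 0.08, adjusted p = 0.653) and was highest in Alternaria leaves.

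AT1G68600, annotated as an aluminium-activated malate transporter, stood at 10.4, 14.5 and 13.4 CPM in untreated, 66.4, 78.7 and 92.2 in mock and 30.8, 39.2 and 25.8 in Alternaria leaves. Again untreated and Alternaria libraries did not overlap, and Alternaria lay 1.23 ± 0.16 above untreated on the log2 scale (adjusted p = 2.6e-05, edgeR). AT3G10405, annotated as a vacuolar acid trehalase, rose by 0.68 ± 0.10 from 33 ± 3.6 to 56.3 ± 7.39 CPM, and AT3G55760, with no annotated function, rose by 0.42 ± 0.08 from 20.1 ± 0.34 to 28.5 ± 3.01 CPM. TLL1, a triacylglycerol lipase-like gene, had 215 ± 15.8 CPM in untreated and 242 ± 45 CPM in Alternaria leaves against 588 ± 123 CPM in mock leaves, and its change between the first pair (0.08 ± 0.15) did not pass.

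The list of 22 starch genes held BAM5 as its only member. Of the 21 others, 9 were higher and 5 lower in mock than in untreated leaves (median log2 change 0.10, against -0.01 over all tested genes), and 16 were higher and 2 lower in mock than in Alternaria leaves (median 0.35, against 0.02). Examples chosen after their values were seen are APL3, a subunit of the enzyme that makes the starch precursor, and GBSS1, the synthase of amylose. APL3 rose from 55.3 ± 5.27 to 118 ± 19.8 CPM in mock leaves (1.06, adjusted p = 6.5e-05, edgeR). GBSS1 fell from 1670 ± 196 to 693 ± 70.9 CPM (-1.31, adjusted p = 5.9e-06, edgeR), and the plastid beta-amylase BAM3 fell from 1620 ± 179 to 526 ± 52.7 CPM (-1.67, adjusted p = 1.1e-06, edgeR).

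ASPGB1, an asparaginase that frees ammonium from asparagine, had 5.6 ± 2.06 CPM in untreated, 11.5 ± 0.697 in mock and 3.45 ± 1.13 in Alternaria leaves. It fell in Alternaria against untreated leaves by 0.79 on the log2 scale (SE 0.26, adjusted p = 0.0168, edgeR), with overlapping groups, and did not pass without untreated replicate 2, untreated replicate 3 or Alternaria replicate 3 (adjusted p = 0.0554 to 0.0987). GDU4, of a family of membrane proteins that affect amino acid export, rose by 0.43 ± 0.17 from 12.5 ± 3.46 to 17.8 ± 3.4 CPM (adjusted p = 0.0388, edgeR), and this call was lost under 10 of 18 alternatives, among them leaving out replicate 1 or 2 of any group (0.29 to 0.42) and upper-quartile scaling (0.23). The related asparaginase gene ASPGA1 passed no comparison, at 13.1 ± 2.14, 13.8 ± 1.11 and 14.1 ± 0.96 CPM.

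PAP1 (AT1G56650, also MYB75), a transcription factor that switches on anthocyanin pigment genes, measured 5.72, 5.57 and 6.66 CPM in untreated, 28.5, 52.9 and 66.3 in mock and 16.9, 16.6 and 13.8 in Alternaria leaves. Mock libraries were uneven, with replicate 1 the lowest, and lay above the others by the rule. Untreated and Alternaria libraries did not overlap. Alternaria exceeded untreated leaves by 1.32 ± 0.26 (adjusted p = 0.00068, edgeR), and the mock mean was 8.23 times the untreated mean.

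Of 28 other tested genes of flavonoid and anthocyanin synthesis, 7 rose and 11 fell in mock against untreated leaves (median -0.40, against -0.01 over all tested genes), and 10 rose and 13 fell in Alternaria against untreated leaves. Those named here were chosen after their values were seen. The late anthocyanin enzyme genes DFR and LDOX rose in mock leaves by 1.89 (adjusted p = 0.00125) and 1.65 (adjusted p = 0.00123, edgeR), from 1.95 ± 0.607 to 7.36 ± 1.96 CPM and from 2.15 ± 0.519 to 6.93 ± 1.08 CPM. In Alternaria leaves they stood at 7.03 ± 3.05 and 6 ± 2.79 CPM, and mock against Alternaria did not pass (0.11 and 0.25). Of the 28 genes, 12 were higher and 8 lower in mock than in Alternaria leaves. Among the lower were PAP2 (-0.73, adjusted p = 0.0477) and MYB113 (-1.27, adjusted p = 0.0161, edgeR). CHS, the first enzyme of the pathway, fell from 131 ± 9.41 to 85.7 ± 9.69 CPM (-0.65, adjusted p = 0.00162, edgeR). MYB111, an activator of flavonol genes, fell from 13.3 ± 1.19 to 2.76 ± 0.288 CPM (-2.31, adjusted p = 1.2e-06, edgeR).

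BES1 (AT1G19350), a transcription factor of brassinosteroid signalling, measured 111, 102 and 116 CPM in untreated, 209, 228 and 227 in mock and 97.4, 112 and 94.4 in Alternaria leaves. Untreated and Alternaria libraries overlapped (-0.20 ± 0.08, adjusted p = 0.0515, edgeR), while the fold over untreated lay close to its limit. The change passed under 6 alternatives, among them without untreated replicate 2 (-0.26), mock replicate 1 (-0.21) or Alternaria replicate 2 (-0.29). A gene on the opposite strand, AT1G19360, shares 818 bases with BES1, and it rose in Alternaria leaves (0.88 ± 0.10).

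COR15A (AT2G42540), which encodes a protein that protects chloroplasts in the cold, measured 111, 83.5 and 65.7 CPM in untreated, 143, 191 and 242 in mock and 58.1, 63.3 and 60.5 in Alternaria leaves. Untreated and Alternaria libraries did not overlap, but the spread in untreated and mock leaves was wide. Alternaria leaves fell below untreated leaves by 0.60 on the log2 scale (SE 0.20, adjusted p = 0.0169, edgeR). The call was lost without untreated replicate 1 (-0.36, adjusted p = 0.0865) and without Alternaria replicate 1 (-0.55, adjusted p = 0.0562).

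LTI78 (AT5G52310, also RD29A), a gene induced by cold, drought and abscisic acid, measured 110, 71.9 and 71.2 CPM in untreated, 174, 188 and 174 in mock and 64, 50.2 and 67 in Alternaria leaves. Untreated replicate 1 lay above its group, yet untreated and Alternaria libraries did not overlap. LTI78 fell in Alternaria against untreated leaves by 0.57 on the log2 scale (SE 0.16, adjusted p = 0.00859, edgeR).

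Of the 19 other tested genes of the cold list, 5 rose and 5 fell in mock against untreated leaves (median 0.32, against -0.01 over all tested genes), and 8 were higher and 3 lower in mock than in Alternaria leaves. The dehydrin genes ERD10 and COR47 rose in mock leaves by 0.42 (adjusted p = 0.00246) and 0.40 (adjusted p = 0.0226, edgeR), from 216 ± 9.43 to 297 ± 15.1 and from 150 ± 5.33 to 202 ± 6.08 CPM. COR413PM1, a membrane protein gene, did not pass (0.32, adjusted p = 0.0916). COR15B, the neighbouring copy of COR15A, had 6.58 ± 2.56, 10.7 ± 2.41 and 4.3 ± 0.678 CPM and did not pass in mock against untreated leaves (0.67 ± 0.25, adjusted p = 0.0589). It was higher in mock than in Alternaria leaves (1.36 ± 0.25, adjusted p = 4.9e-04, edgeR). COR15B fell in Alternaria against untreated leaves (-0.70 ± 0.26, adjusted p = 0.0323, edgeR), as COR15A did. CBF2, an activator of this regulon, fell in mock leaves from 1.31 ± 0.418 to 0.386 ± 0.194 CPM (-1.79, adjusted p = 0.0125, edgeR) and is named here after its values were seen. It also fell in Alternaria against untreated leaves (-1.27, adjusted p = 0.0243, edgeR). The related CBF3 had 0.308 ± 0.097 and 0.407 ± 0.152 CPM in untreated and mock leaves and did not pass (0.36, adjusted p = 0.598), while CBF1 was too low to be tested.

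**Figure D3:**
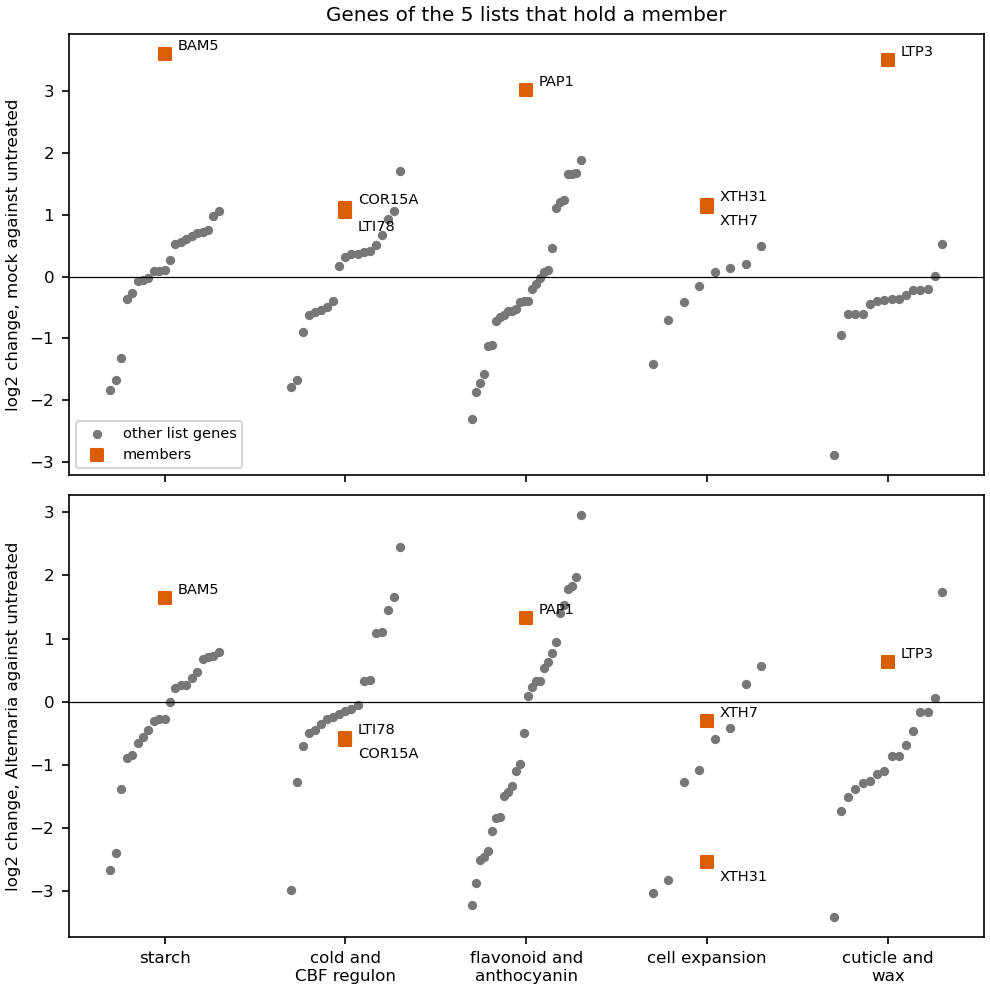
log2 changes of mock (upper panel) and Alternaria (lower panel) against untreated leaves for the tested genes of the 5 lists that hold a member, with members as orange squares and other list genes as grey points ordered by value. BAM5 lies above every other starch gene in both panels, and COR15A and LTI78 lie above 0 in the upper and below 0 in the lower panel; members were chosen on the upper comparison, and both panels share the untreated libraries.

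The deepest fall was that of a cell wall gene. XTH31 (AT3G44990), which encodes a xyloglucan hydrolase, measured 69.2, 33.4 and 43.5 CPM in untreated, 129, 94.3 and 113 in mock and 10.8, 8.18 and 7.79 in Alternaria leaves. Untreated and Alternaria libraries were apart, with untreated replicate 1 high in its group. Against untreated leaves it fell in Alternaria leaves by 2.54 on the log2 scale (SE 0.24, adjusted p = 1.3e-06, edgeR).

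XTH7, a related xyloglucan enzyme gene, measured 123, 115 and 140 CPM in untreated, 276, 255 and 323 in mock and 117, 119 and 90.7 in Alternaria leaves. Untreated and Alternaria libraries overlapped, and the fall of 0.30 (SE 0.12, adjusted p = 0.0376, edgeR) was lost without untreated replicate 1, untreated replicate 3 or Alternaria replicate 3 (adjusted p = 0.0636 to 0.172), with no scaling beyond library totals (-0.21), with no filter on low counts (-0.25) and with the replicate block (-0.29). EXPB1, a beta-expansin gene, had 5.81 ± 0.833, 14.6 ± 2.81 and 2.97 ± 0.538 CPM in untreated, mock and Alternaria leaves, and fell in the last against the first by 1.06 (SE 0.18, adjusted p = 0.00022, edgeR).

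Among the 8 other genes of the cell expansion list 0 rose and 3 fell in mock against untreated leaves (median -0.05), and 5 were higher and 0 lower in mock than in Alternaria leaves. XTH9 did not pass in mock against untreated leaves (-0.16, adjusted p = 0.5), nor did the alpha-expansin gene EXPA1 (0.14, adjusted p = 0.463). EXPA5, another alpha-expansin gene, fell from 79.3 ± 6.28 to 49.9 ± 1.84 CPM (-0.71, adjusted p = 2.4e-05, edgeR). EXPB3, the close copy of EXPB1, had 20.8 ± 3.14 and 26.2 ± 2.42 CPM in untreated and mock leaves (0.30 ± 0.17, adjusted p = 0.217).

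Among hormone genes, ACS4, which makes the precursor of ethylene, measured 2.91, 3.88 and 2.82 CPM in untreated, 8.4, 6.49 and 6.96 in mock and 2.43, 1.84 and 1.29 in Alternaria leaves. Untreated and Alternaria libraries did not overlap, and ACS4 fell with the fungus by 0.88 on the log2 scale (SE 0.22, adjusted p = 0.00366, edgeR). UGT76C2, which inactivates cytokinins by adding glucose, had 11.5 ± 1.11, 26.5 ± 1.61 and 9.24 ± 1.02 CPM, and fell by 0.40 (SE 0.10, adjusted p = 0.00481, edgeR). Its neighbour and close copy UGT76C1 passed no comparison, at 15 ± 0.228, 16.4 ± 1.24 and 15.9 ± 1.59 CPM. AT5G02760, a protein phosphatase gene of class 2C, had 11.1 ± 3.81, 24 ± 0.53 and 15.1 ± 1.69 CPM and did not pass between untreated and Alternaria leaves (0.37 ± 0.20, adjusted p = 0.133), although it did without untreated replicate 1 (0.57).

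AZI1 (AT4G12470), a lipid transfer-like protein of systemic immunity, measured 16.1, 2.56 and 3.59 CPM in untreated, 40.4, 60 and 29.8 in mock and 24.3, 26.6 and 20.2 in Alternaria leaves. Untreated replicate 1 lay near the other groups and the remaining untreated libraries far below. Alternaria exceeded untreated leaves by 1.63 ± 0.50 (adjusted p = 0.012, edgeR), and the call was lost without untreated replicate 3 (adjusted p = 0.0537).

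Its close copies EARLI1 and AZI3, named after their values were seen, were highest with the fungus instead. EARLI1 had 2.82 ± 2.86, 18.5 ± 8.67 and 45.9 ± 8.79 CPM in untreated, mock and Alternaria leaves, and AZI3 had 2.36 ± 2, 19.3 ± 11.1 and 267 ± 169 CPM. In Alternaria against mock leaves both rose, since mock against Alternaria was -1.28 ± 0.40 (adjusted p = 0.0157) for EARLI1 and -3.76 ± 0.52 (adjusted p = 4.4e-05, edgeR) for AZI3.

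AT2G43620, a chitinase family gene, measured 49, 2.98 and 8.41 CPM in untreated, 69.9, 85.6 and 55.5 in mock and 36.4, 41.2 and 36.5 in Alternaria leaves. Here too untreated replicate 1 stood with the treated leaves. Alternaria against untreated did not pass (0.84 ± 0.64, adjusted p = 0.261), but it did without untreated replicate 1 (2.72, adjusted p = 6.78e-06, edgeR) and, with all libraries, under limma-voom (1.92, adjusted p = 0.0123). The peroxidase genes AT4G36430 (7.35, 1.23 and 1.31 CPM in untreated leaves) and AT5G39580 (3.57, 0.162 and 0.817 CPM) shared that pattern. Their changes of 0.30 ± 0.56 and 0.80 ± 0.61 did not pass, and without untreated replicate 1 they were 1.67 (adjusted p = 0.00192) and 2.47 (adjusted p = 0.000342, edgeR). With all libraries AT5G39580 also passed under limma-voom (1.81, adjusted p = 0.0289).

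LTP3, a lipid transfer protein gene and the only member of the cuticle and wax list, measured 0.528, 0.194 and 0.939 CPM in untreated, 2.34, 2.88 and 13.4 in mock and 0.385, 0.555 and 1.74 in Alternaria leaves. Mock replicate 3 held most of its reads, and without that library LTP3 did not meet the rule. Its coefficient of variation in mock leaves, 101%, was the highest of all members, whose median was 12.7% against 6.02% over all genes at the level limit. Of 16 other tested genes of that list, 1 rose and 10 fell in mock against untreated leaves (median -0.38). MLP28, a major latex protein-like gene, had 234 ± 12.2, 553 ± 120 and 318 ± 72.8 CPM and did not pass between untreated and Alternaria leaves (0.35 ± 0.17, adjusted p = 0.0856), but it did without mock replicate 1 (0.34) or Alternaria replicate 3 (0.52), with no scaling beyond library totals (0.44), with no filter on low counts (0.40) and in a fit of the 6 libraries compared (0.36). AT2G43550, a small knottin-type protein gene, stood at 5.66 ± 1.18 and 5.53 ± 2.06 CPM in those groups against 12 ± 1.21 CPM in mock leaves (-0.11 ± 0.23, adjusted p = 0.696).

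GDPD6, a glycerophosphodiester phosphodiesterase that releases glycerol phosphate from lipid remnants, measured 1.28, 1.04 and 1.51 CPM in untreated, 6.11, 7.32 and 6.43 in mock and 3.41, 3.95 and 3.79 in Alternaria leaves. Its untreated and Alternaria libraries were clear of each other, and Alternaria exceeded untreated by 1.47 ± 0.19 (adjusted p = 1.7e-05, edgeR). The remorin gene AT2G41870, whose upstream bases are printed above, rose by 0.69 ± 0.10 from 21.5 ± 1.47 to 36.8 ± 3.06 CPM, with 61.4 ± 5.14 CPM in mock leaves.

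AT3G07940, an ARF-type GTPase activating protein gene, rose by 0.30 ± 0.10 (adjusted p = 0.0201, edgeR), a call lost without untreated replicate 2, untreated replicate 3 or Alternaria replicate 1 (0.23 to 0.27) and under upper-quartile scaling (0.11). ANNAT4, an annexin that binds membranes with calcium, measured 12.9, 13.9 and 17.3 CPM in untreated, 38.7, 40.5 and 39.3 in mock and 26.5, 15.3 and 20.3 in Alternaria leaves. Its mock libraries were close together, while the other groups overlapped, and the rise of 0.41 ± 0.16 (adjusted p = 0.039, edgeR) was lost under 10 of 18 alternatives, among them leaving out untreated or mock replicate 1 or 2, Alternaria replicate 1 or Alternaria replicate 3 (0.22 to 0.41), limma-voom (0.40) and upper-quartile scaling (0.21). ANNAT3, its neighbour and copy, also rose in mock leaves over untreated, by 0.86 ± 0.18 (adjusted p = 0.00434, edgeR), from 5.11 ± 0.993 to 9.57 ± 1.57 CPM.

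The phospholipase C gene AT3G55940 (0.04 ± 0.23) did not pass between Alternaria and untreated leaves. CYP710A2, a sterol desaturase gene, had 15.7 ± 2.11, 37 ± 2.82 and 19.5 ± 3.58 CPM in untreated, mock and Alternaria leaves and did not pass (0.23 ± 0.13, adjusted p = 0.146), although it did without Alternaria replicate 3 (0.36). Its neighbour and copy CYP710A1 moved otherwise, at 0.486 ± 0.256, 0.81 ± 0.224 and 22.4 ± 9.66 CPM, and rose in Alternaria over untreated leaves by 5.44 ± 0.40 (adjusted p = 1.1e-07, edgeR).

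Genes of organelle and ribosomal RNA transcription were few. AT2G34620, of the mitochondrial transcription termination factor family, measured 36.8, 41.6 and 45.9 CPM in untreated, 109, 117 and 115 in mock and 69.7, 78.5 and 59.3 in Alternaria leaves. With no overlap, Alternaria exceeded untreated leaves by 0.65 ± 0.10 (adjusted p = 8.3e-05, edgeR). AT2G39240, related to the RNA polymerase I factor RRN3, fell from 2.95 ± 0.396 to 1.86 ± 0.365 CPM (-0.75 ± 0.25, adjusted p = 0.0169, edgeR), a call lost without untreated replicate 2 or Alternaria replicate 3. NUC-L2, a nucleolin-like gene, had 3.71 ± 1.34 and 5.31 ± 0.604 CPM (0.43 ± 0.21, adjusted p = 0.0853) and passed without untreated replicate 1 (0.75), under limma-voom (0.51, adjusted p = 0.0437) and with no scaling beyond library totals (0.52, adjusted p = 0.0399). AT1G77960, annotated as like the repressor ROX1, did not pass (0.39 ± 0.25).

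Members without a known role included AT3G27250, at 6.08, 4.72 and 3.02 CPM in untreated, 7.12, 9.89 and 12.6 in mock and 0.948, 2.7 and 1.56 in Alternaria leaves. Untreated and Alternaria libraries did not overlap, and AT3G27250 fell with the fungus by 1.51 (SE 0.36, adjusted p = 0.00278, edgeR). AT1G13650 (-0.52 ± 0.13), AT1G15830 (-0.62 ± 0.20) and AT1G27030 (-0.61 ± 0.24) also fell, AT1G15830 not without untreated replicate 3 or Alternaria replicate 1, and AT1G27030 not without any 1 of the untreated libraries or Alternaria replicate 3, under DESeq2 (adjusted p = 0.0817) or with no scaling beyond library totals (-0.52, adjusted p = 0.0706). AT1G22160, of a senescence-associated family, rose from 20.6 ± 1.38 to 32.4 ± 4.88 CPM (0.56 ± 0.12). AT4G12900, a thiol reductase family gene, did not pass (0.27 ± 0.18).

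The pseudogenes AT5G34790.1 and AT5G34800.1 were the only members that neighboured each other, 2.99 kb apart with 1 gene between them. AT5G34800.1 measured 3.43, 3.37 and 3.47 CPM in untreated, 5.78, 11 and 5.21 in mock and 2.22, 2.04 and 2.12 in Alternaria leaves. Mock replicate 2 was highest for both. AT5G34800.1 fell with the fungus (-0.77 ± 0.27, adjusted p = 0.025, edgeR), not without untreated replicate 3 or any 1 Alternaria library nor under limma-voom (adjusted p = 0.0694), and AT5G34790.1 did not pass (-0.34 ± 0.27). Reads of such repeated sequences can be split among copies, so both are uncertain.

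Several members overlap a gene on the opposite strand, and no source used here says whether counting used the strand. AT1G15830 shares 536 bases with AT1G15825, which rose likewise in mock over untreated leaves (0.90 ± 0.21, adjusted p = 0.00736, edgeR), so reads of the pair cannot be told apart. Overlaps of 37 to 1174 bases touched BES1, AT1G77960, AT3G10405, AT4G12900, AT5G02760 and GDPD6 as well. The partner genes tested there did not rise in mock over untreated leaves.

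In the authors' deposited table of Alternaria against untreated leaves 16 members were higher and 12 lower at an adjusted p under 0.05. Over the 25117 genes with an adjusted p in the authors' deposited table, 27.9% were higher and 22.7% lower. Calls in both that table and the edgeR fit numbered 27, all in the same direction, 1 was made in the table only and 3 in edgeR only, the differing genes being MLP28, AZI1, XTH7 and UGT76C2.

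The same measure was then read in libraries that had not chosen the genes. The rule was applied to 2 replicate numbers, and the 3 libraries of the number left out were read. With replicate 1, 2 or 3 left out, 71, 52 and 40 genes met the rule, of which 41, 37 and 31 are among the 46. The mock library left out was the highest of its 3 in 60 (84.5%), 51 (98.1%) and 37 (92.5%) of them, against 25.4%, 23% and 28.5% of all genes at the level limit. It passed both folds in 17 (23.9%), 29 (55.8%) and 23 (57.5%), against 0.329%, 0.385% and 0.644%. So most genes chosen on 2 replicate numbers kept mock on top in the libraries left out. Fewer kept the size of the fold, fewest in replicate 1. This is a description with no test, and all genes at the level limit were not matched to the chosen ones. It adds nothing for the 46, whose mock libraries are all highest by the rule.

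**Figure D4:**
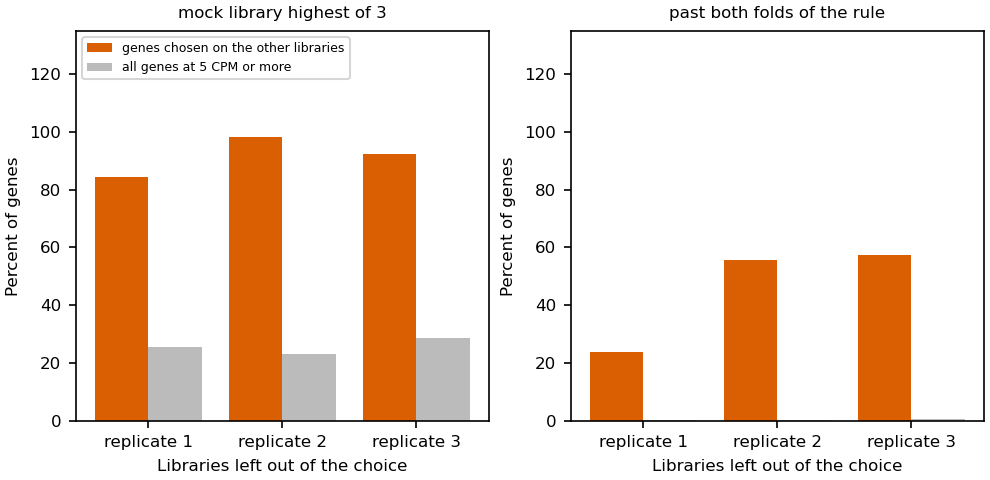
Percent of genes (y axis) whose left-out mock library was the highest of its 3 (left panel) or passed both folds (right panel), for genes chosen on the other libraries (orange) and for all genes at 5 CPM or more (grey), by replicate number left out (x axis). Orange bars stand at 84.5%, 98.1% and 92.5% on the left and at 23.9%, 55.8% and 57.5% on the right.

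Single libraries moved with the members. Mock replicate 1 was the lowest mock library for 27 members (58.7%, against 32.2% of all genes at the level limit), and Alternaria replicate 3 was the lowest of its group for 30 (65.2%, against 41.6%). Untreated replicate 1 was the highest untreated library for 23 (50%, against 37.4%), and untreated replicate 2 was the lowest for 24 (52.2%, against 27.2%) and the highest for 7 (15.2%, against 32.6%). The part of these libraries in the results was not tested beyond leaving each out.

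The members were spread over the chromosomes, with 11, 11, 8, 7 and 9 on chromosomes 1 to 5. Chromosome 2 held 23.9% of members and 15.2% of genes at the level limit. Their median transcript length was 1633 bases, against 1842 over genes at that limit, and 13% had a single exon, against 11%. Only 7 members belong to any of the 22 pathway lists, spread over 5 lists, and 39 belong to none.

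Motifs were counted in the 250 bases before the start on either strand. ACGTG was present in 34.8% of the 46 members (exact 95% interval 21.4 to 50.2) and in 23.4% of 21075 tested genes. CACGTG, which contains ACGTG, was present in 13% (4.94 to 26.3) against 7.16%, CCGAC in 15.2% (6.34 to 28.9) against 12.8%, and GATAAG in 21.7% (10.9 to 36.4) against 12.3%. TTGAC, the core bound by WRKY factors, was present in 39.1% (25.1 to 54.6) against 44.9%, and AGCCGCC in 0 members against 0.603% of genes. TGGGCC, the site II element, was present in 4.35% (0.531 to 14.8) against 16%, the only 1 of 13 motifs whose interval left out the share of all genes. The intervals were not adjusted for the number of motifs, and the tested genes were not matched to the members in level. The other 6 motifs were AAATATCT, AAAAATCT, AAACCCTA, GAANNTTC, ACCTACC and ACCAACC, with 2.17 to 8.7% of members against 1.21 to 9.54% of genes. In the 300-base window that adds 50 bases after the start, the shares were 41.3% against 27.4% for ACGTG, 23.9% against 16% for CCGAC, 28.3% against 14.7% for GATAAG and 4.35% against 18.1% for TGGGCC. On the forward strand only they were 26.1% against 15.9%, 10.9% against 7%, 13% against 6.38% and 2.17% against 9.57%.

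**Figure D5:**
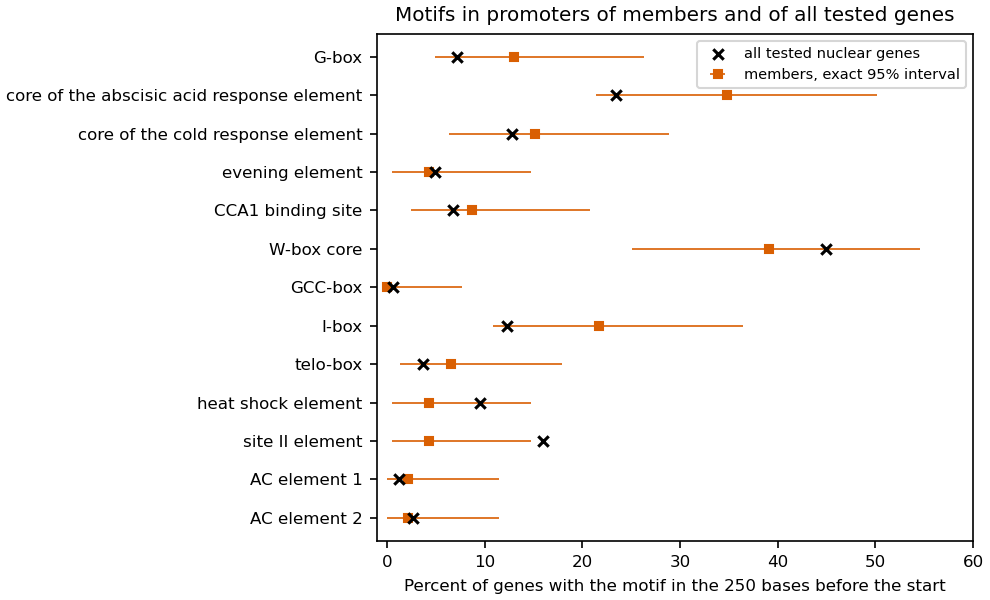
Percent of genes with each of 13 motifs in the 250 bases before the start (x axis), for the 46 members (orange squares with exact 95% intervals) and for all tested genes (black crosses). The cross lies outside the interval for the site II element, at 16% against 0.531 to 14.8, with no adjustment for the 13 motifs.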

How the data were processed

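Messenger RNA libraries of 9 leaf samples were analysed from the authors' deposited files. Each library has a deposited file of unnormalised counts for all listed genes. Per the submitters' processing notes, the genome was TAIR10, TopHat2 2.0.12 and HTSeq were used, and DESeq2 1.8.2 made the comparisons. Not given in the sources used here were the strand option, the HTSeq version and its gene models. Fold changes in the authors' deposited tables are on the log2 scale, with p-values per the file headers, and are positive where the group named second is higher.

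Lines that name no gene (7.73 to 11.2% of a library) were left out of totals and CPM. Genes were kept by filterByExpr (minimum count 10), scaled by TMM and fitted in edgeR 4.0.16 (R 4.3.3) with 1 mean per group over all 9 libraries and 6 residual degrees of freedom. The quasi-likelihood F test was adjusted with Benjamini-Hochberg over 22019 genes at 0.05. Standard errors were taken as log2 change over root F. Mock comparisons, used by the rule, carry no test for members. Same-numbered replicates did not deviate together (correlations -0.0652 to 0.0341), so the main fit has no block. P-values measure the spread between these libraries only.

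The members and the gene lists were chosen with earlier results of these data known. Named are list members, the members with the highest mock level, the largest folds and the largest changes without overlap, those at the limits, transcription factors and neighbours; the remaining members are named to complete the account, and close copies were chosen after values were seen. Names and sequences came from RefSeq TAIR10.1, which named 44 of 46 members by exact locus. The annotation of 1 member is not reported here. The edgeR fit of Alternaria against untreated leaves was also run on simulated counts, with an outcome not given here. The rule that chose the members was not part of that run. Alternatives were other scalings, filters, DESeq2 1.42.0, limma-voom (limma 3.58.1), 6 libraries only, a replicate block, each library left out, and other limits of the rule, motif windows and strands. Tables and figures used Python 3.11.15, numpy 2.4.6, pandas 2.3.3, scipy 1.17.1 and matplotlib 3.10.9.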

Additional observations from a re-analysis of the deposited data

How the results depend on the processing

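The number of genes that met the rule was 46, and 47 or 48 under TMM, RLE or upper-quartile scaling, the last sharing 40 of them. It moved to 25 with at least 2 times the Alternaria mean, 115 with at least 1.5 times the untreated mean, and 6 with at least 3 times untreated and 2 times Alternaria, as the limits themselves imply. Leaving out each library gave 41 to 72. Members higher in Alternaria than in untreated leaves numbered 13 to 19 over the leave-outs and members lower 9 to 15. With the replicate number as a block, 15 members were higher and 12 lower, against 16 and 14. Counts over all genes in the leave-outs and with the block are not given here. Whether these shifts are particular to the members was not tested. GDU4, AT1G27030 and XTH7 lost their call under that block, and the samples share only a number. No called member changed sign under any of 18 alternatives. The held-out share with mock highest was 90.8%, and 91.7 or 91.9% under TMM or without organelle genes.

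Signs turned for these members, none of which passed in the main test; the cause was not tested. Under upper-quartile scaling TLL1 was -0.11, AT1G61795 -0.05 and AT3G55940 -0.15. Without untreated replicate 1, AT1G61795 was -0.05 and AT2G43550 0.04. Without untreated replicate 2, AT3G55940 was -0.01 and AT4G36430 -0.14, and without untreated replicate 3 the latter was -0.07. Without Alternaria replicate 1, AT3G55940 was -0.11; without replicate 2, TLL1 was -0.03 and AT2G43550 0.04; without replicate 3, AT2G43550 was 0.02 and LTP3 -0.29. Over the leave-outs TLL1 ranged from -0.03 to 0.22, AT1G61795 from -0.05 to 0.42, AT2G43550 from -0.44 to 0.04, AT3G55940 from -0.11 to 0.19, AT4G36430 from -0.14 to 1.67 and LTP3 from -0.29 to 1.28. Depth limits the lowest members: LTP3 and AT5G39580 had 0.194 and 0.162 CPM in untreated replicate 2, where 3 counts are 0.0971 CPM.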

Other observations

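Of 17 pathway lists without a member, the first 6 given here were chosen after their values were seen. Over all tested genes 15.1% were higher and 14.1% lower in mock than in untreated leaves. Of 17 tested morning clock genes, 0 rose and 15 fell (median log2 change -0.54, edgeR). Of 12 sulfur deficiency genes 0 rose and 9 fell (median -0.99), of 21 light and UV-B signalling genes 3 rose and 14 fell (median -0.74), and of 16 heat shock genes 0 rose and 9 fell (median -0.71). Of 29 jasmonate genes 13 rose and 3 fell in mock leaves (median 0.43), and 25 were higher and 2 lower in Alternaria than in untreated leaves, where the shares over all genes were 33.1% and 31.8%. Of 15 salicylic acid genes 8 rose and 0 fell in mock leaves (median 0.53). In the other 11 lists 0 to 7 genes rose and 2 to 12 fell, with medians of -0.46 to 0.28. Among these is the list for abscisic acid and dehydration, named because motifs of that response are marked above. Of its 35 tested genes 7 rose and 12 fell in mock against untreated leaves (median 0.00). In mock against Alternaria leaves 8 were higher and 15 lower (median -0.50), where the shares over all genes were 26.1% and 29.5%.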
